A study of Homo sapiens with 16 samples.

Results

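The genes described here encode the classical axon guidance cues and their receptors: Slits and Robos, netrins with DCC and the UNC5 receptors, semaphorins with plexins and neuropilins, and ephrins with Eph receptors. They were chosen by a rule on gene symbols, and 68 of the 18239 genes named on the array were members. Each gene was represented by the probe set (a group of probes against 1 transcript) with the highest mean over all 16 arrays. Of the 68 members, 62 lay above the dimmest 25% of genes and were tested. The other 6, DCC, NTN5, EPHA1, EPHA3, EPHA7 and EPHB6, were dim, with group means of 3.18 to 3.63 on the log2 scale, where the limit was a mean of 3.65 over all arrays. EPHA1 lay just outside this limit at 3.61 and EPHA5 just inside at 3.70.

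The measurements came from SK-N-SH, a line grown from a human neuroblastoma in which adrenergic, neuroblast-like and mesenchymal, substrate-adherent cells coexist. Cultures near confluence received 10 µM risperidone, an antipsychotic that blocks dopamine and serotonin receptors, for 6, 24 or 48 h, and 4 arrays were hybridised for each exposure time. A further 4 arrays came from untreated cells, which per the protocol received the DMSO vehicle alone and whose harvest time is not given. The same 4 untreated arrays were therefore set against every exposure time, so the contrasts with untreated are not independent of each other. The design sets each exposure time against untreated cells. With 1 untreated group of unstated harvest time, the hours in culture cannot be told apart from the length of exposure. Nor can they be told apart from the drug in any contrast with untreated. The labels call the arrays biological replicates but describe no separate cultures, and the p-values below measure only the spread among these arrays of 1 line, which may be technical.

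Guidance cues steer growing axons and migrating cells by attraction or repulsion, and the same systems act in neural crest migration, vessel growth and tumour cell movement. Slits signal through Robo receptors, and netrins attract through DCC and repel through UNC5 receptors. Secreted class 3 semaphorins bind neuropilins, which pass the signal through plexins, whereas ephrins are held on the membrane and signal into both the Eph-bearing and the ephrin-bearing cell.

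All values are deposited log2 expression values made by robust multi-array average (RMA), and every difference below is a log2 difference with its standard error from limma. Array medians lay between 4.5 and 4.62. Pearson correlations over tested genes were 0.996 to 0.999 within groups and 0.968 to 0.978 between untreated and treated arrays. Between arrays of different treated groups they were 0.993 to 0.998. At 6 h, 34 of the 62 tested members passed limma's adjusted p of 0.05, or 54.8%, where 53.3% of all 13680 tested genes did. The share of members called was thus near that of all genes. By direction, 17 members rose and 17 fell, against 36.6% of all genes higher and 16.7% lower. Falls of at least 2-fold were found for 8 members and for 4.18% of all genes. No member rose as much, where 0.592% of all genes did. The median difference was 0.03 over the members and 0.09 over all genes. At 24 h 37 members passed (all genes: 52.1%), of which 19 rose and 18 fell (all genes: 35.3% higher, 16.9% lower). Falls of at least 2-fold numbered 10 (all genes: 3.9%) and such rises 0 (all genes: 0.899%). At 48 h 35 passed (all genes: 57%), of which 17 rose and 18 fell (all genes: 36% higher, 21% lower). Here 10 fell (all genes: 4.47%) and 1 rose (all genes: 1.7%) by at least 2-fold. The median difference of the members was 0.02 at 24 h and 0.01 at 48 h, against 0.09 and 0.08 over all genes.

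After cyclic loess, another scaling between arrays, the balance shifted. Of the member calls 37.9% were then higher at 6 h, 41.7% at 24 h and 41.7% at 48 h, against 50%, 51.4% and 48.6% as deposited. Of all calls 46.2%, 46.2% and 47.4% were then higher, against 68.7%, 67.6% and 63.1% as deposited. Rises lost under it were those of EFNA1 (0.09), EPHA8 (0.13), PLXNB3 (0.19), SEMA6C (0.16), UNC5A (0.17) and UNC5B (0.02) at 6 h, EFNB1 (0.22), PLXNB3 (0.21), SEMA4F (0.04) and SEMA5B (0.16) at 24 h, and ROBO2 (0.14) and SEMA4F (0.09) at 48 h, with adjusted p of 0.0582 to 0.831 in limma. Falls gained under it were those of ROBO3 at 6, 24 and 48 h (-0.25, -0.23 and -0.24), SEMA4B at 24 and 48 h (-0.28 and -0.33), EPHB1 at 24 h (-0.29) and UNC5B at 48 h (-0.25), with adjusted p of 0.000871 to 0.0281.

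No called member was lower than untreated at 1 time and higher at another. Lower at all 3 times were 17 members (all genes: 13%), and higher at all 3 times were 10 (all genes: 24%). Of the rest, 18 passed at none of the 3 times, where 27.9% of all genes did not, and 17 passed at 1 or 2 of them. The map of differences below sets the members side by side. In 12 members the largest difference from untreated was at least 2-fold with all 4 arrays outside the untreated range (all genes: 6.76%), and 11 of these 12 were lower. Falls of at least 2-fold also outnumbered such rises over all genes. They numbered 572 against 81 at 6 h, 534 against 123 at 24 h and 612 against 232 at 48 h.

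**Figure D1:**
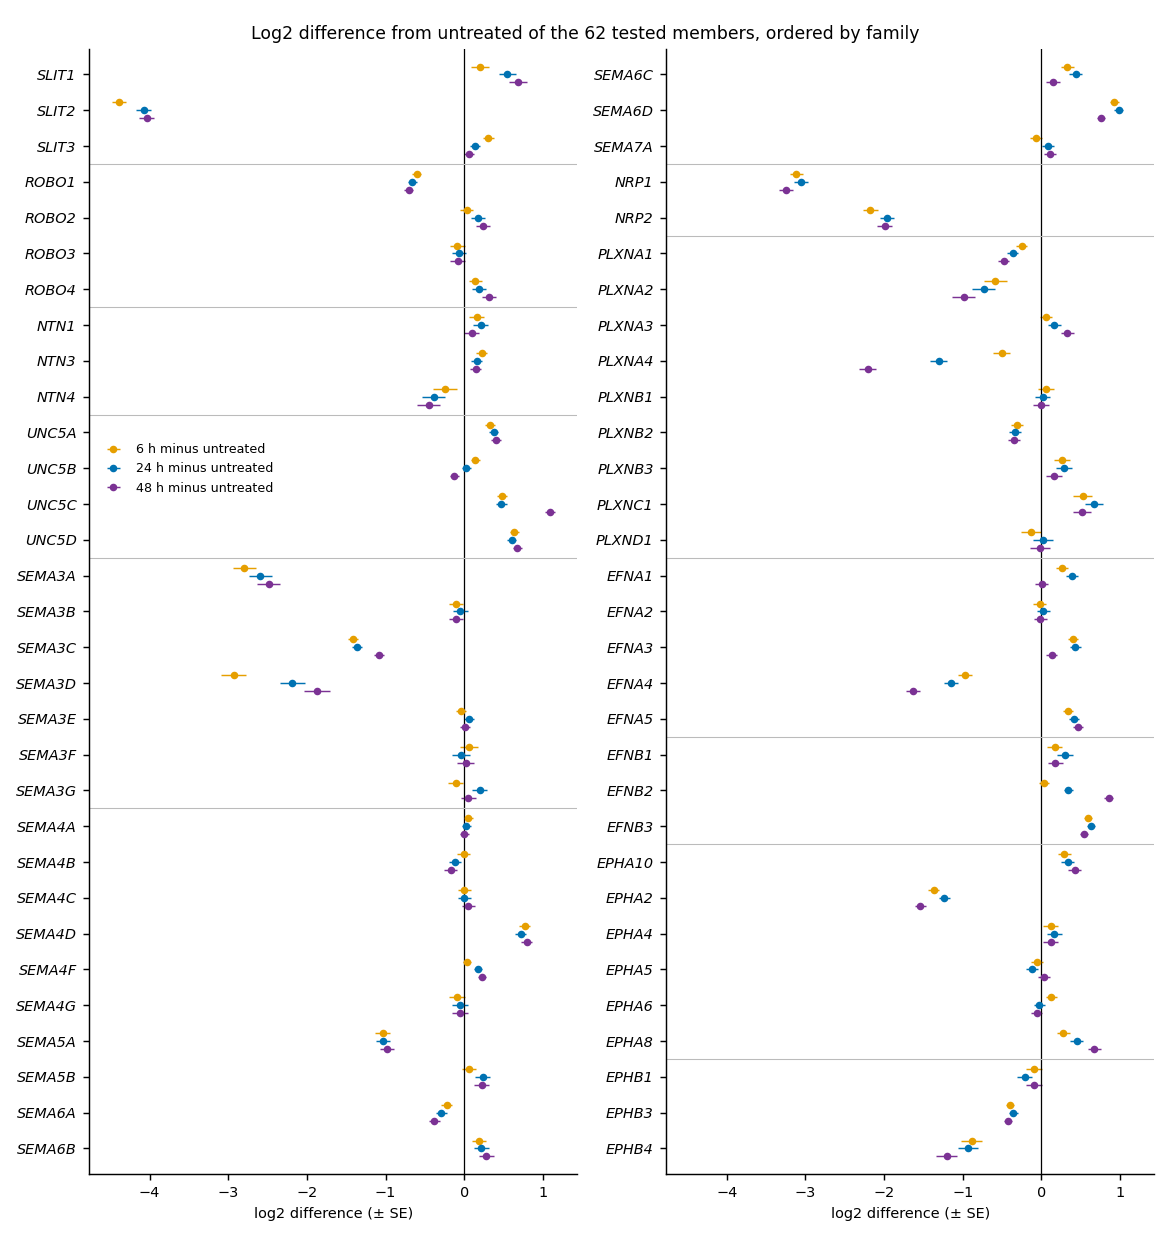
Log2 difference from untreated (x axis, with standard errors) of the 62 tested members, 1 row a gene, in order of family with grey lines between families. Points for 6, 24 and 48 h lie close together for most members, SLIT2 stands farthest left at -4.39 to -4.04, and PLXNA4 and UNC5C spread out by exposure time.

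Among the Slit ligands and Robo receptors, SLIT2 showed the deepest fall of any tested member, while no other Slit or Robo gene changed 2-fold. SLIT2, a secreted repellent, read 9.0, 8.89, 8.92 and 8.92 in untreated cells, and 4.53, 4.48, 4.53 and 4.63 at 6 h. At 24 h it read 5.00, 4.90, 4.54 and 4.99, and at 48 h 4.86, 4.76, 4.81 and 5.16. Every treated array lay far below every untreated array. The difference was -4.39 ± 0.09 at 6 h (limma adjusted p = 1.54e-15), -4.08 ± 0.09 at 24 h and -4.04 ± 0.09 at 48 h. SLIT2 has 1 probe set here, so no second one could be compared. In bulk samples such as these, fewer cells of a type and less RNA per cell cannot be told apart.

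SLIT1, a Slit best known from the nervous system, rose by 0.55 ± 0.11 after 24 h and 0.68 ± 0.11 after 48 h. SLIT3 rose by 0.31 ± 0.07 at 6 h, did not pass at 24 h (0.14 ± 0.07, limma adjusted p = 0.104) and read 0.06 ± 0.07 at 48 h. At 24 h, SLIT3 passed without untreated replicate 1 (0.19). At 6 h SLIT1 read 0.20 ± 0.11 and passed without untreated replicate 1 (0.30). ROBO1, the broadly expressed Slit receptor, fell by 0.61 ± 0.05, 0.66 ± 0.05 and 0.71 ± 0.05 at 6, 24 and 48 h. Its other probe sets ran from -0.20 to 0.08 over the 3 times, so the fall rests on the brightest probe set. ROBO3, which modulates Robo signalling at the midline, passed at no time (-0.09 to -0.07) but was called lower at all 3 times after cyclic loess (-0.25 to -0.23). Its 2 other tested probe sets read the other way, at 0.11 to 0.22, and 1 of them was called higher at 24 h (0.22). ROBO2 rose by 0.24 ± 0.09 at 48 h, a call lost without 48 h replicate 3 (0.15), untreated replicate 3 or untreated replicate 4 (adjusted p = 0.0577 to 0.103), and it passed at 24 h without 48 h replicate 3 (0.18). With probe sets averaged ROBO2 passed at 6 h (0.18) and 24 h (0.23). ROBO4, the Robo of endothelial cells, rose by 0.31 ± 0.08 at 48 h, and at 24 h (0.19 ± 0.08) it passed without 6 h replicate 4. When its probe sets were averaged, ROBO4 passed as lower instead, at -0.17, -0.23 and -0.16 for the 3 times. Its other probe sets, too dim to be tested, read -0.59 to -0.28, so the rise rests on 1 probe set.

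For the 12 members of largest difference, RefSeq's promoter table (GRCh38.p14) held windows of 10, and 58 of the 68 members had one. The 250 bases before the annotated start are printed below, 5′ to 3′ on the gene's strand, for SLIT2 as the deepest fall, NRP2 as a receptor subunit that fell with it, PLXNA4 as the member that kept falling and EPHA2 as the one of these 10 with a TEAD motif. Capitals mark matches on either strand to the motifs searched. These were the letters GGAATG for TEAD factors, the letters TGANTCA for the AP-1 dimer, the letters CAGGTG for an E-box of the kind bound by helix-loop-helix and zinc finger factors, the letters AGATAA for GATA factors, and the letters GGGCGG for the GC box.
SLIT2, chr4:20251655-20251904, plus strand: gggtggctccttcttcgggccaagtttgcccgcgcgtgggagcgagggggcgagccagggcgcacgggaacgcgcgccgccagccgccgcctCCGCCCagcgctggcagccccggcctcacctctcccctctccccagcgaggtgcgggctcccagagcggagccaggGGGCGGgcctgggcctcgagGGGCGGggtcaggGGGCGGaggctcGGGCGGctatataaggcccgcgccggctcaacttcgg
NRP2, chr2:205682251-205682500, plus strand: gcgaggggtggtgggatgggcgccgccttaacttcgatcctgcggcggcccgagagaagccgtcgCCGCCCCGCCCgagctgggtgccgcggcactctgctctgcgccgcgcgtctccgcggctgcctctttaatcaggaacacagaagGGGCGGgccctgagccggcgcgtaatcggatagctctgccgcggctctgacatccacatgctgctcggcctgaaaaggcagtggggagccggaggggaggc
PLXNA4, chr7:132576471-132576720, minus strand: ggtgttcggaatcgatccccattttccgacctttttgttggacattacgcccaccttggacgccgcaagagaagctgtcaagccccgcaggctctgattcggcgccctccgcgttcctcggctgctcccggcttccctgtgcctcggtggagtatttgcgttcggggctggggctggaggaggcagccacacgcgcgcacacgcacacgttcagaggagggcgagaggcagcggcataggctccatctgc
EPHA2, chr1:16156070-16156319, minus strand: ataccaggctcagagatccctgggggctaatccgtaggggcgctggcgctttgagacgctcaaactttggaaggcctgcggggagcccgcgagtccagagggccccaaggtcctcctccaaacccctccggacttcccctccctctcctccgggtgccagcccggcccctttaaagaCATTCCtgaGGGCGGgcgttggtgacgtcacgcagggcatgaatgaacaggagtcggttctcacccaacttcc
The GC box matched 5 times in the SLIT2 window, 3 times in NRP2 (2 of them overlapping), once in EPHA2 and nowhere in PLXNA4. It was present for 50 of the 58 members with a window (86.2%) and in 42.6% of all 35116 windows of this length. Of the 10 members of largest difference with a window, 7 had it. All windows were not limited to genes on the array or to those tested. A member counted when any of its windows matched, so the shares here and below are of unlike sets. The member windows shown are rich in G and C, at 77.2% in SLIT2, 70% in NRP2, 63.6% in PLXNA4 and 63.2% in EPHA2, where the median of all windows was 58%. GGAATG was found for 6 members (10.3%) and in 11.9% of all windows, and AGATAA for 6 (10.3%) and in 9.17%. CAGGTG was found for 12 members (20.7%) and in 17.5% of all windows, and TGANTCA for 1 (1.72%) and in 6.57%. Letters that match are a description of these windows and not evidence of a bound site.

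In the netrin system 3 of 4 tested receptors, all UNC5 genes, were higher at every time (all genes: 24%) and the ligands lay near the dim limit. UNC5C, a repulsive netrin receptor, read 6.10, 6.35, 6.09 and 6.18 in untreated cells, and 6.65, 6.60, 6.72 and 6.66 at 6 h. At 24 h it read 6.70, 6.58, 6.72 and 6.60, and at 48 h 7.39, 7.30, 7.27 and 7.11. All treated arrays lay above the untreated ones, and the 48 h arrays above all others. UNC5C rose by 0.48 ± 0.07, 0.47 ± 0.07 and 1.09 ± 0.07 at the 3 times (limma adjusted p = 2.82e-10 at 48 h). UNC5D rose by 0.60 to 0.67 ± 0.06, with its other tested probe set at 0.65 to 0.77. UNC5A rose by 0.33 to 0.41 ± 0.06, and its 6 h call was lost after cyclic loess (0.17).

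UNC5B, the fourth UNC5 receptor, rose by 0.14 ± 0.06 at 6 h. This call was lost on leaving out 1 of 12 arrays (6 h replicates 1, 3 and 4, all 4 of 24 h, 48 h replicates 2 and 3, untreated replicates 1, 3 and 4, adjusted p = 0.0516 to 0.158). At 24 h UNC5B read 0.02 ± 0.06 and at 48 h -0.13 ± 0.06, where it missed the threshold. At 48 h UNC5B passed as lower without 48 h replicate 4 or untreated replicate 4 (-0.17 to -0.16), after cyclic loess (-0.25), after quantile normalization again (-0.15), with the dimmer 50% of genes left out (-0.13) and with its probe sets averaged (-0.17). A second UNC5B probe set read -0.06, -0.17 and -0.38 at the 3 times. Among the ligands NTN3 rose by 0.22 ± 0.07 at 6 h, and NTN4, a netrin of basement membranes, fell by 0.39 ± 0.15 at 24 h and by 0.46 ± 0.15 at 48 h. The NTN4 call at 24 h was lost without any 1 of the 24 h arrays or without untreated replicate 1 (adjusted p = 0.0542 to 0.0915), in the last case with a difference of -0.18. Without untreated replicate 1 the 48 h difference of NTN4 was -0.25 and still passed. With its probe sets averaged NTN4 also passed at 6 h (-0.29). NTN1, the founding member, read 0.09 to 0.21 and passed at no time, though without 6 h replicate 1 it passed at 6 h (0.24) and 24 h, and at 24 h also without 6 h replicate 4 or 24 h replicate 2. NTN3 passed at 24 h without 6 h replicate 2 or 48 h replicate 1 (0.16), and at 48 h without 48 h replicate 1 (0.20).

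Secreted semaphorins split into 3 that fell deeply at all 3 times (all genes: 13% lower) and 4 that passed at no time (all genes: 27.9%). SEMA3A, a repellent of sensory and sympathetic axons, read 7.23, 6.93, 6.95 and 7.15 in untreated cells, and 4.24, 4.32, 4.03 and 4.48 at 6 h. At 24 h SEMA3A read 4.91, 4.31, 4.48 and 4.18, and at 48 h 4.45, 4.61, 4.33 and 4.93. The groups did not overlap with untreated. The fall was -2.80 ± 0.15 at 6 h (limma adjusted p = 5.43e-11) and -2.49 ± 0.15 at 48 h, and its other probe set fell by 2.49 at 6 h.

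SEMA3D, known from cardiovascular and neural crest development, read 9.88, 9.79, 9.66 and 9.74 in untreated cells, and 7.44, 6.85, 6.28 and 6.78 at 6 h. At 24 h it read 7.60, 7.63, 7.44 and 7.65, and at 48 h 7.67, 7.95, 7.96 and 8.0. All treated arrays were below untreated, and the 48 h arrays lay above all 6 h arrays. The fall was -2.93 ± 0.16 at 6 h, -2.19 ± 0.16 at 24 h and -1.87 ± 0.16 at 48 h. The 2 other probe sets of SEMA3D were dim, with differences of -0.50 to -0.31, and with the mean of all 3 the fall at 6 h was -1.20.

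SEMA3C, a secreted cue for neural crest cells and axons, read 9.98, 10.11, 10.17 and 10.11 in untreated cells, and 8.78, 8.77, 8.61 and 8.54 at 6 h. At 24 h SEMA3C read 8.67, 8.70, 8.74 and 8.81, and at 48 h 8.89, 9.12, 9.02 and 8.98. Treated and untreated arrays did not overlap, and the 48 h arrays were higher than those at 6 and 24 h. The differences were -1.42 ± 0.06, -1.36 ± 0.06 and -1.09 ± 0.06, and the 4 other tested probe sets read -1.54 to -0.86. The remaining class 3 genes SEMA3B, SEMA3E, SEMA3F and SEMA3G read between -0.11 and 0.20. A second SEMA3B probe set read -0.36, -0.28 and -0.28 at the 3 times and was called lower at each, and with probe sets averaged SEMA3B passed as lower at 6 h (-0.19). For SEMA3F a second tested probe set read -0.54 to -0.41, and averaging its probe sets made SEMA3F pass as lower at 6 h (-0.16), 24 h (-0.16) and 48 h (-0.13). SEMA3G passed at 24 h without 48 h replicate 4 (0.20).

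Both neuropilins, the ligand-binding subunits for class 3 semaphorins and co-receptors for VEGF, fell beside these ligands. NRP1 read 9.37, 9.28, 9.46 and 9.40 in untreated cells, and 6.48, 6.33, 6.02 and 6.22 at 6 h. At 24 h NRP1 read 6.38, 6.36, 6.17 and 6.37, and at 48 h 6.08, 6.03, 6.10 and 6.33. Treated arrays lay far below untreated and overlapped among themselves. NRP1 fell by 3.12 ± 0.09, 3.06 ± 0.09 and 3.24 ± 0.09 at the 3 times (limma adjusted p = 1.62e-14 at 48 h).

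NRP2 read 6.73, 6.92, 7.02 and 7.07 in untreated cells, and 4.92, 4.62, 4.68 and 4.82 at 6 h. At 24 h NRP2 read 5.18, 5.00, 4.88 and 4.82, and at 48 h 4.75, 5.00, 5.03 and 4.98. Again no treated array reached the untreated range. The differences were -2.18 ± 0.09, -1.97 ± 0.09 and -1.99 ± 0.09. The size depends on the probe set. A second probe set read -2.04 to -1.66 for NRP1 and -1.92 to -1.80 for NRP2, while the dimmer ones moved less, and the mean over all probe sets gave -0.90 for NRP1 and -0.63 for NRP2 at 6 h.

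**Figure D2:**
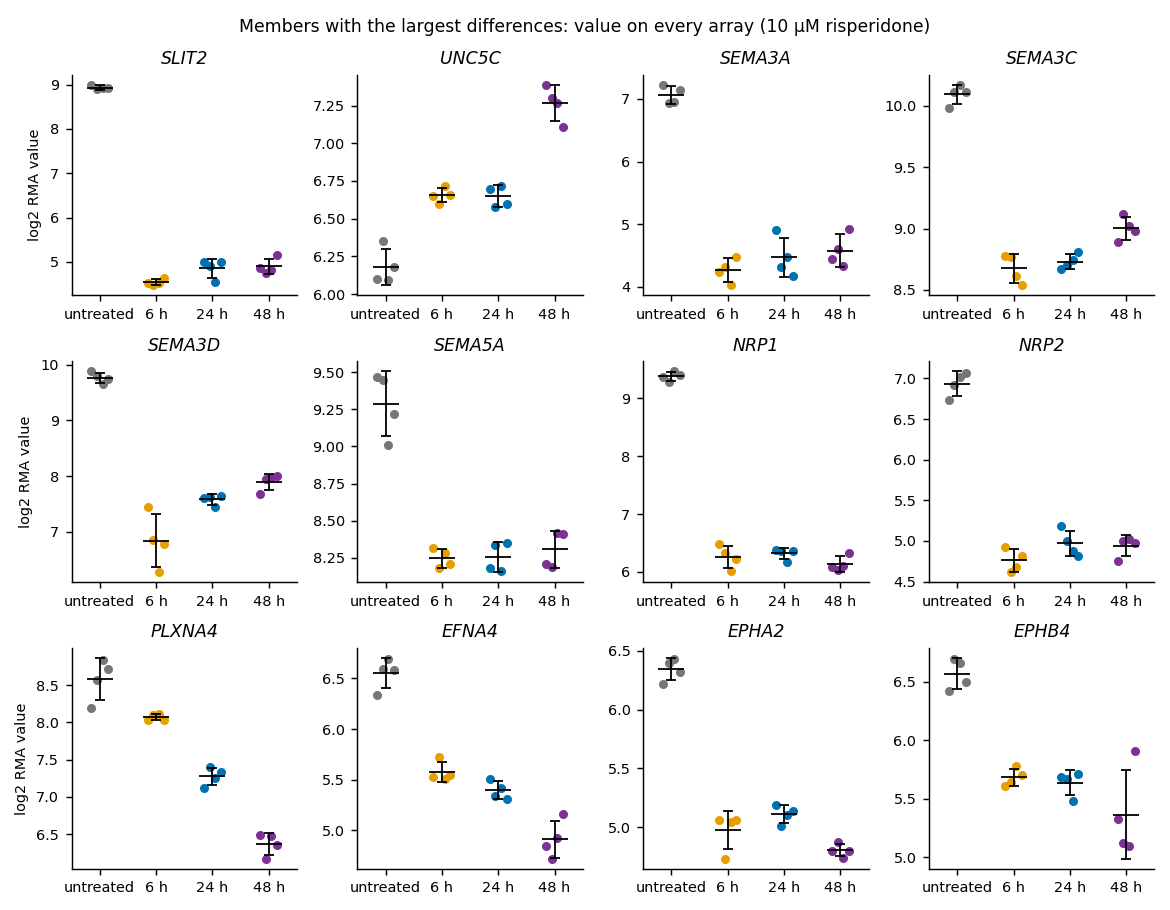
Log2 RMA value (y axis, a scale of its own in each panel) on every array, by group (x axis), for the 12 members with the largest differences. Points are arrays, bars the group mean and whiskers the SD (n = 4), and in 11 panels the treated arrays sit below the untreated ones, while in UNC5C they sit above.

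Plexins, the signalling receptors of semaphorins, moved less at 6 h, and 1 of them was lower at each later time. PLXNA4, which carries SEMA3A and SEMA6 signals, read 8.19, 8.57, 8.84 and 8.72 in untreated cells, and 8.03, 8.10, 8.12 and 8.04 at 6 h. At 24 h PLXNA4 read 7.12, 7.40, 7.25 and 7.33, and at 48 h 6.49, 6.17, 6.47 and 6.35. The 4 groups did not overlap, each later one lying below the one before. The fall was -0.51 ± 0.11 at 6 h, -1.31 ± 0.11 at 24 h and -2.21 ± 0.11 at 48 h (limma adjusted p = 1.92e-11). Another PLXNA4 probe set read -0.13, -0.33 and -0.65 at the 3 times, and the dimmest tested one read -0.01 to 0.17.

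PLXNA2 fell by 0.59 ± 0.15, 0.74 ± 0.15 and 0.99 ± 0.15, PLXNA1 by 0.25 ± 0.07, 0.37 ± 0.07 and 0.48 ± 0.07, and PLXNB2 by 0.31 to 0.35 ± 0.08, with arrays overlapping untreated at 48 h. The second probe set of PLXNA2 read -0.87, -1.21 and -0.84 at the 3 times. It was called lower at 24 h than at 6 h (-0.34) and higher at 48 h than at 24 h (0.37). Higher at all 3 times was PLXNC1, the receptor of SEMA7A, by 0.52 to 0.67 ± 0.12. PLXNA3 rose by 0.33 ± 0.08 at 48 h only. PLXNB3 rose by 0.26 ± 0.10 at 6 h and 0.29 ± 0.10 at 24 h, both close to the threshold. Its 6 h call was lost on leaving out any 1 of 10 arrays (6 h replicates 2, 3 and 4, 24 h replicates 3 and 4, 48 h replicates 1 and 2, untreated replicates 1, 2 and 4, adjusted p = 0.0506 to 0.143). The 24 h call was lost without 24 h replicates 1, 3 or 4 or untreated replicates 1 or 4 (adjusted p = 0.0564 to 0.0921), and at 48 h PLXNB3 passed without 48 h replicate 3 (0.25). PLXNB1, a receptor of SEMA4D, and PLXND1 read -0.13 to 0.06 and passed at no time, though PLXND1 passed as lower at 6 h with its probe sets averaged (-0.20).

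Of the 13 membrane semaphorins, 2 fell (all genes: 13%) and 2 rose (all genes: 24%) at all 3 times, shares near or below those of all genes. SEMA5A, a transmembrane cue that can attract or repel, read 9.47, 9.45, 9.01 and 9.22 in untreated cells, and 8.32, 8.18, 8.28 and 8.21 at 6 h. At 24 h SEMA5A read 8.18, 8.34, 8.16 and 8.35, and at 48 h 8.21, 8.19, 8.42 and 8.41. On the probe set that stands for SEMA5A, treated arrays lay below untreated and showed no step with time. The fall was -1.04 ± 0.09 at 6 h and -0.98 ± 0.09 at 48 h, and the other 2 tested probe sets read -0.98 to -0.22. Of these, the dimmer read -0.82, -0.70 and -0.22 at the 3 times, with a called rise of 0.48 from 24 h to 48 h. With probe sets averaged, SEMA5A also passed as higher at 48 h against 24 h (0.15) and against 6 h (0.20).

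SEMA6D, a ligand of PLXNA1 and PLXNA4, read 7.78, 7.67, 7.67 and 7.78 in untreated cells, and 8.57, 8.64, 8.74 and 8.66 at 6 h. At 24 h SEMA6D read 8.68, 8.76, 8.61 and 8.77, and at 48 h 8.51, 8.40, 8.55 and 8.48. Every treated array was above every untreated one. SEMA6D rose by 0.93 ± 0.05, 0.98 ± 0.05 and 0.76 ± 0.05 (limma adjusted p = 1.55e-10 at 6 h). Its other tested probe set read -0.21 to -0.02, so the rise rests on 1 probe set, and the mean of all its probe sets rose by 0.28 at 6 h. SEMA4D, the ligand of PLXNB1, rose by 0.72 to 0.79 ± 0.07, and its second tested probe set read 0.35 to 0.42.

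Smaller changes were found for SEMA6C, which rose by 0.33 ± 0.09 at 6 h and 0.44 ± 0.09 at 24 h, and SEMA4F, which rose by 0.17 ± 0.05 at 24 h and 0.23 ± 0.05 at 48 h. With probe sets averaged the 24 h call of SEMA4F was lost (0.11). Of its 2 other tested probe sets, 1 read -0.11, -0.12 and 0.18 at the 3 times, and the other was above 0 throughout. SEMA6A was lower by differences of -0.23 ± 0.07, -0.29 ± 0.07 and -0.38 ± 0.07, and its 6 h call was lost without 6 h replicate 4 (-0.20) or untreated replicate 3 (-0.16). SEMA5B rose by 0.24 ± 0.09 at 24 h, a call lost on leaving out 1 of 8 arrays (6 h replicates 1 and 2, 24 h replicates 1 and 4, 48 h replicate 1, untreated replicates 2, 3 and 4, adjusted p = 0.0528 to 0.123). That call was also lost with probe sets averaged (0.11). At 48 h SEMA5B missed the threshold (0.22 ± 0.09, adjusted p = 0.0525) and passed without 6 h replicate 3, 6 h replicate 4, 48 h replicate 3 or untreated replicate 1 (0.22 to 0.32). SEMA6B rose by 0.28 ± 0.09 at 48 h, a call lost without 48 h replicate 3 or untreated replicate 4 (adjusted p = 0.0568 to 0.0612). Averaging the probe sets of SEMA6B also lost this call (0.12). Its untreated mean of 3.54 lay below the limit for dim genes, so it was tested only through its treated arrays. At 6 h SEMA6B passed without 6 h replicate 3 or untreated replicate 1 (0.25 to 0.27), and at 24 h without 6 h replicates 3 or 4, 48 h replicate 3 or untreated replicate 1 (0.22 to 0.28). SEMA4A, SEMA4B, SEMA4C, SEMA4G and SEMA7A passed at no time (-0.18 to 0.11), though SEMA4B passed at 48 h without 24 h replicate 3 or 48 h replicate 1 (-0.21 to -0.18), and at 24 and 48 h after cyclic loess (-0.28 and -0.33).

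Ephrins and Eph receptors parted by member, with 1 ephrin-A and 3 Eph receptors lower and the other called members higher. Of all genes, 13% were lower and 24% higher at all 3 times. EFNA4, a ligand anchored by a lipid tail, read 6.34, 6.59, 6.69 and 6.58 in untreated cells, and 5.53, 5.72, 5.51 and 5.55 at 6 h. At 24 h EFNA4 read 5.51, 5.34, 5.42 and 5.31, and at 48 h 4.85, 4.72, 4.92 and 5.16. Treated arrays were below untreated, and the 48 h arrays below all others. The fall was -0.97 ± 0.09, -1.16 ± 0.09 and -1.64 ± 0.09 (limma adjusted p = 6.32e-11 at 48 h), from the 1 probe set of this gene.

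EPHA2, a receptor widely studied in epithelial tumours, read 6.22, 6.40, 6.43 and 6.32 in untreated cells, and 5.06, 4.73, 5.04 and 5.06 at 6 h. At 24 h EPHA2 read 5.19, 5.01, 5.10 and 5.14, and at 48 h 4.80, 4.87, 4.74 and 4.80. No treated array reached the untreated range. The differences of EPHA2 were -1.37 ± 0.07, -1.23 ± 0.07 and -1.54 ± 0.07, and those of its other probe set -0.63 to -0.47.

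EPHB4, the receptor of EFNB2 in vessels, read 6.42, 6.70, 6.66 and 6.50 in untreated cells, and 5.61, 5.64, 5.78 and 5.70 at 6 h. At 24 h EPHB4 read 5.69, 5.67, 5.48 and 5.71, and at 48 h 5.33, 5.12, 5.10 and 5.91. Treated arrays were below untreated, with 1 of the 48 h arrays above all others that had been treated. The fall was -0.89 ± 0.13, -0.93 ± 0.13 and -1.21 ± 0.13. The other 2 tested probe sets of EPHB4 read -0.17 to 0.16, and the mean over all its probe sets fell by 0.16 at 6 h and 0.25 at 48 h. EPHB3, a receptor with 1 probe set, fell by 0.36 to 0.42 ± 0.05.

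EFNB2, the membrane ligand of EPHB4, read 9.26, 9.40, 9.36 and 9.22 in untreated cells, and 9.37, 9.42, 9.38 and 9.20 at 6 h. At 24 h EFNB2 read 9.69, 9.63, 9.67 and 9.61, and at 48 h 10.26, 10.05, 10.22 and 10.13. The 6 h arrays overlapped the untreated ones, and those of 24 h and 48 h lay above them in turn. EFNB2 read 0.03 ± 0.06 at 6 h and rose by 0.34 ± 0.06 at 24 h and 0.86 ± 0.06 at 48 h, with other probe sets at 0.34 to 0.84 at 48 h.

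EFNB3, a neuronal ephrin, rose by 0.54 to 0.63 ± 0.05 at all 3 times, and EFNA5, which acts in topographic mapping, by 0.34 to 0.47 ± 0.06. EFNA1 rose by 0.26 ± 0.08 at 6 h and 0.39 ± 0.08 at 24 h but read 0.00 ± 0.08 at 48 h, and EFNA3 by 0.40 ± 0.07 and 0.43 ± 0.07 with 0.13 ± 0.07 at 48 h. EFNA3 passed at 48 h without 48 h replicate 4 or untreated replicate 2 (0.17 to 0.18). EFNB1 rose by 0.30 ± 0.10 at 24 h, a call lost without 24 h replicate 1, 24 h replicate 2 or untreated replicate 4 (adjusted p = 0.0569 to 0.0745), and at 48 h it passed without untreated replicate 3 (0.25). Of the receptors, EPHA8 rose by 0.28 ± 0.08, 0.45 ± 0.08 and 0.67 ± 0.08, and EPHA10, a kinase-dead member, by 0.29 to 0.42 ± 0.08. The other tested EPHA10 probe set read -0.07 to 0.00, so the rise rests on 1 probe set, and that of EPHA8 read 0.08 to 0.25. The 2 other tested EFNA3 probe sets read -0.15 to 0.14. EFNA2, EPHA4, EPHA5, EPHA6 and EPHB1 read -0.22 to 0.17 and passed at no time. On leaving out untreated replicate 1, EPHA4 passed at all 3 times (0.22 to 0.27) and EPHB1 at 24 h (-0.27). EPHB1 also passed at 24 h without 48 h replicate 1 (-0.22) and after cyclic loess (-0.29). Another EPHB1 probe set, too dim on average to be tested, averaged 3.30, 3.23 and 3.26 at 6, 24 and 48 h, against 4.25 in untreated cells. EPHA6 passed at 6 h without 6 h replicate 2 (0.18).

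**Figure D3:**
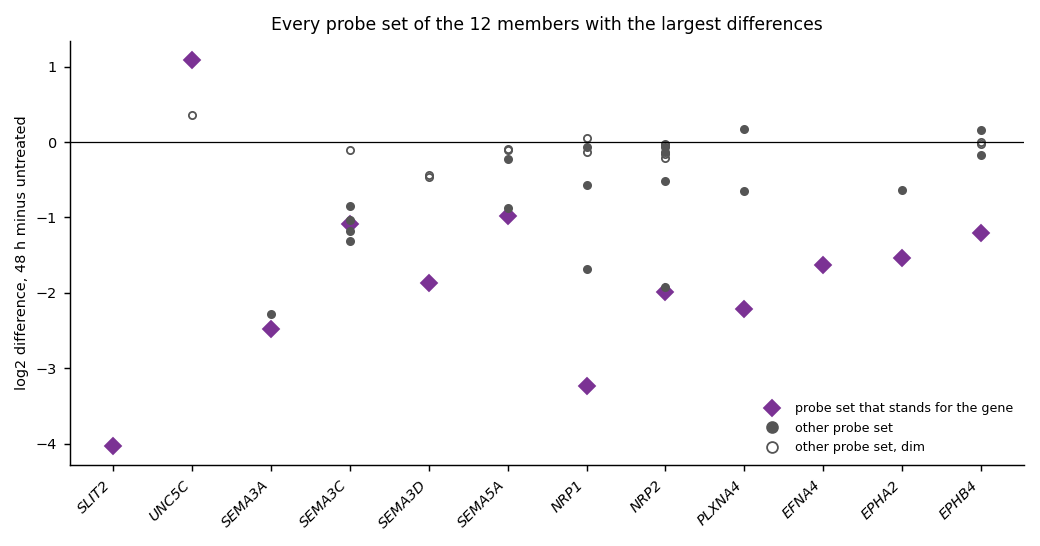
Log2 difference between 48 h and untreated (y axis) for every probe set of the 12 members with the largest differences (x axis). Diamonds are the probe sets that stand for the gene, filled circles other tested probe sets and open circles dim ones; SEMA3A, SEMA3C and NRP2 have a second probe set close to the diamond, while for EPHB4 the other tested probe sets lie at -0.17 and 0.16.

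Few members differed between 24 h and 6 h, and more differed between 48 h and the earlier times. At 24 h against 6 h, 2 members were higher and 1 lower (all genes: 2.4% called, 1.55% higher, 0.855% lower). PLXNA4 fell by 0.80 ± 0.11 (limma adjusted p = 0.000729), EFNB2 rose by 0.31 ± 0.06, and SEMA3D rose by 0.74 ± 0.16. The SEMA3D call was lost without 6 h replicate 4 or 24 h replicates 1, 2 or 4 (adjusted p = 0.0524 to 0.0606), and with its probe sets averaged (0.17, adjusted p = 0.342). SLIT2 read 0.32 ± 0.09 and passed without 24 h replicate 3 or 48 h replicate 4 (0.32 to 0.42), and SEMA3G passed without 48 h replicate 4 (0.31).

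At 48 h against 24 h, 3 members were higher and 7 lower (all genes: 28.6% called, 13.5% higher, 15.1% lower). PLXNA4 fell by 0.91 ± 0.11, EFNA4 by 0.48 ± 0.09, EFNA1 by 0.39 ± 0.08, EPHA2 by 0.31 ± 0.07 and EFNA3 by 0.30 ± 0.07. SEMA6C fell by 0.29 ± 0.09 and SEMA6D by 0.22 ± 0.05. The SEMA6C call was lost without 24 h replicate 2 or 48 h replicates 1 or 2 (adjusted p = 0.0559 to 0.0657), and those of EFNA3 (-0.09) and SEMA6D (-0.08) with probe sets averaged. UNC5C rose by 0.62 ± 0.07 (limma adjusted p = 4.66e-06), EFNB2 by 0.52 ± 0.06 and SEMA3C by 0.27 ± 0.06. Leaving out 1 array brought 8 further members past the threshold, among them EPHB4 without 48 h replicate 4 (-0.45).

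At 48 h against 6 h, 9 members were higher and 9 lower (all genes: 33.6% called, 16.7% higher, 17% lower). The largest rises were SEMA3D (1.06 ± 0.16), EFNB2 (0.82 ± 0.06), UNC5C (0.61 ± 0.07), SLIT1 (0.48 ± 0.11) and EPHA8 (0.39 ± 0.08). The largest falls were PLXNA4 (-1.70 ± 0.11), EFNA4 (-0.67 ± 0.09), PLXNA2 (-0.41 ± 0.15), EFNA3 (-0.27 ± 0.07) and UNC5B (-0.27 ± 0.06). The PLXNA2 call was lost on leaving out any 1 of 9 arrays (6 h replicates 1, 3 and 4, 24 h replicates 1, 2 and 4, 48 h replicates 1, 2 and 4, adjusted p = 0.0502 to 0.124), and that of EFNA3 with probe sets averaged (-0.10). The second PLXNA2 probe set read 0.03 at 48 h against 6 h and was not called. Smaller calls were lost for EFNA1 (-0.26, without 48 h replicates 1 or 3), PLXNA1 (-0.23, without 6 h replicate 3 or 48 h replicate 1), PLXNA3 (0.27, without 48 h replicate 4) and SEMA6D (-0.17, without 6 h replicate 3 or 48 h replicate 2). With probe sets averaged the calls of SEMA3C (0.12), SEMA4F (0.15), PLXNA1 (-0.08), PLXNA2 (-0.19) and SEMA6D (-0.07) were lost as well. Without 1 array 12 further members passed, EPHB4 by the most (-0.50 without 48 h replicate 4).

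**Figure D4:**
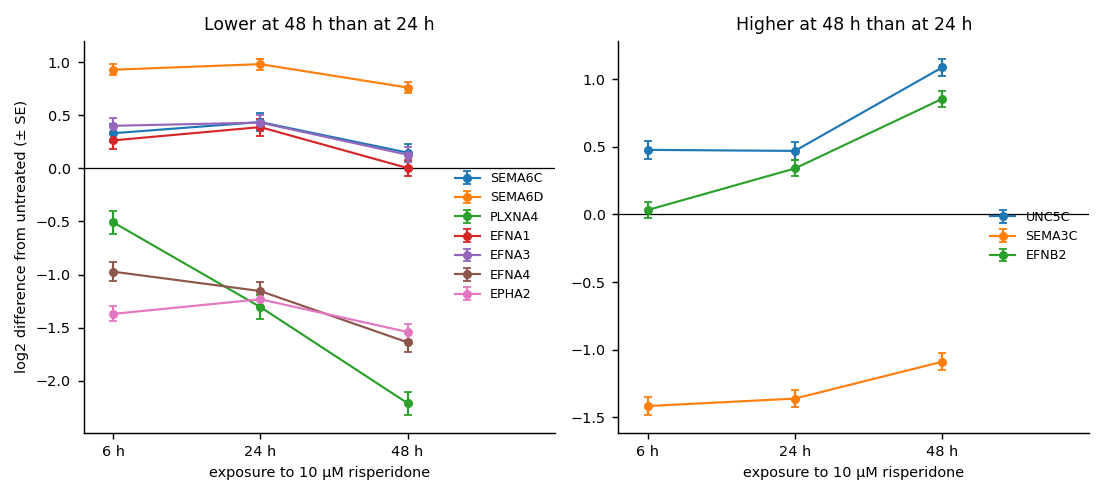
Log2 difference from untreated (y axis, with standard errors) at 6, 24 and 48 h (x axis) for the 10 members that differed between 48 h and 24 h, 7 lower (left) and 3 higher (right). PLXNA4 descends to -2.21, EFNA1 and EFNA3 come back towards 0, and UNC5C and EFNB2 climb to 1.09 and 0.86.

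Other genes of the pathway, co-receptors, modulators and intracellular effectors outside the 4 ligand and receptor systems, were counted in the same fit. This list was drawn up with earlier results of these data known, so its shares are a description only. Of 78 listed, 70 were tested. At 6 h 26 rose and 24 fell, at 24 h 21 rose and 24 fell, and at 48 h 22 rose and 25 fell, with medians of -0.02, -0.03 and 0.00. In shares of the list, 37.1%, 30% and 31.4% rose, against 36.6%, 35.3% and 36% of all genes, and 34.3%, 34.3% and 35.7% fell, against 16.7%, 16.9% and 21% of all genes. The largest falls at 6 h were MICAL2, an actin-oxidising enzyme of the family that acts below plexins (-3.25 ± 0.14), DPYSL3, a collapsin response mediator (-2.39 ± 0.10), the syndecan SDC4 (-2.24 ± 0.09), FLRT2, a repulsive ligand of UNC5D (-2.22 ± 0.12), and the receptor kinase gene MET (-2.21 ± 0.09). FLRT2 averaged 3.13 to 3.23 in treated cells, below the dim limit, against 5.35 in untreated cells, so it passed the filter only through the untreated arrays. These 5 fell most at 24 and 48 h as well, at -3.24 to -1.90. The largest rises at 6 h were TIAM1, an activator of Rac (0.81 ± 0.05), DPYSL5 (0.75 ± 0.04), the kinase gene FYN (0.69 ± 0.05), CRMP1 (0.65 ± 0.06) and the adhesion molecule L1CAM (0.60 ± 0.06). CDK5R1, the activator of the kinase CDK5, and VEGFA, a further ligand of neuropilins, were among the top rises at 24 h (0.67 ± 0.06 and 0.82 ± 0.06). At 48 h FLRT1 rose by 1.95 ± 0.10, ahead of VEGFA (0.96 ± 0.06), L1CAM (0.77 ± 0.06), DPYSL5 (0.69 ± 0.04) and SDC2 (0.68 ± 0.06).

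Markers of cell identity were also set beside all genes. The marker lists were chosen with earlier results of these data known, so their counts beside all genes describe the lists and test nothing. Of 25 markers of the mesenchymal neuroblastoma state, 23 fell and 0 rose at 6 h and 24 h, and 23 fell and 1 rose at 48 h (all genes: 16.7%, 16.9% and 21% lower). Their mean log2 value per array was 6.41 to 6.75 at 6 h, 6.68 to 6.76 at 24 h and 6.50 to 6.67 at 48 h, against 8.87 to 9.11 in untreated cells. By group mean, 23 of the 25 lay above the dim limit at 6 h, 24 at 24 h, 24 at 48 h and 25 in untreated cells. CCN2 averaged 3.09 to 3.44 in treated cells against 8.79 in untreated cells, so it passed the filter only through the untreated arrays. Of 18 adrenergic markers on the array, all above the dim limit in every group, 15 rose and 0 fell at 6 h and 24 h, and 15 rose and 2 fell at 48 h (all genes: 36.6%, 35.3% and 36% higher). Their mean was 10.60 to 10.66 at 6 h, 10.68 to 10.70 at 24 h and 10.71 to 10.78 at 48 h, against 10.10 to 10.15 in untreated cells. The part of these shifts in the falls of SLIT2, SEMA3A, SEMA3C, SEMA3D, NRP1 and NRP2 and in the rises of UNC5C, UNC5D and SEMA6D was not tested. Of the markers of Schwann cells, endothelial cells and leukocytes, 3 of 7, 5 of 7 and 2 of 6 passed the dim limit, and the list means were 3.48 to 3.91 on every array. SOX10, CDH5 and PTPRC, which define these cells, averaged 3.75, 3.36 and 3.16 in untreated cells. S100B, a calcium-binding protein gene of Schwann cells, averaged 5.93 at 6 h against 5.32 in untreated cells, and CD68, a lysosomal protein gene used as a macrophage marker, 4.44 against 5.94.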

How the data were processed

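Expression was measured on 1-colour Human Genome U219 arrays in 16 samples, 4 per group, grouped by their titles. The authors deposited log2 values per probe set (49386 probe sets, 93 of them controls), made with RMA per the submitters' processing notes, which corrects background, equalises array distributions and summarises probes, in software whose name is not given in the sources used here. Precision is limited by the number of arrays. GEO's platform annotation gave 45253 probe sets a single gene symbol, 1327 several and 2713 none, and only the first were named. Matched to RefSeq by Entrez identifier were 45172, with 0 symbols changed. The lowest 25% of genes by mean were left out, which left 13680.

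A single limma fit of all arrays (version 3.58.1, R 4.3.3), with a mean per group and moderated variances, gave two-sided tests, with Benjamini-Hochberg adjustment over all tested genes within each contrast and a threshold of 0.05. The procedure was tested on simulated data. Members and lists were chosen with earlier results of these data known. Values on every array are given for members past a moderated F test whose largest difference from untreated was at least 2-fold with all 4 arrays outside the untreated range, and the 5 members of largest difference in each direction are given between times. EFNB2 and SEMA6D were added on every array after their values were seen. Of the pathway genes, the 5 largest rises and falls at each time are named. Promoter letters and the motif search come from RefSeq windows. Alternatives were other probe set rules, dim filters, scalings and eBayes options, a replicate block, 8-array fits and each array left out.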

Additional observations from a re-analysis of the deposited data

Results flagged for a closer look

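In 17 of 248 groups of 4 arrays 1 array stood apart from the other 3, where chance gives about 1 in 20 groups, or about 12.4. Among treated arrays, EPHA2 read 4.73 in 6 h replicate 2 (others 5.04 to 5.06), SEMA3E 3.8 in 6 h replicate 4 (3.60 to 3.62) and SEMA3F 5.73 in 6 h replicate 4 (5.37 to 5.42). At 24 h, NRP1 read 6.17 in replicate 3 (6.36 to 6.38), PLXNB3 4.17 in replicate 2 (4.36 to 4.39) and SEMA4D 7.31 in replicate 4 (7.19 to 7.21). At 48 h, SEMA3D read 7.67 in replicate 1 (7.95 to 8.0), EPHA8 6.19 in replicate 2 (5.95 to 5.98), SEMA6A 7.55 in replicate 2 (7.73 to 7.75) and SEMA3F 5.62 in replicate 3 (5.37 to 5.39). In 48 h replicate 4, PLXNA1 read 8.11 (7.83 to 7.87) and PLXNB1 7.61 (7.15 to 7.22). In untreated replicate 1, EPHA10 read 4.18 (3.75 to 3.8), EPHA4 4.04 (3.59 to 3.64) and SEMA4C 6.94 (6.60 to 6.61). EFNA5 read 8.28 in untreated replicate 3 (8.45) and ROBO1 10.21 in untreated replicate 4 (10.15).

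Values differed between exposure times in limma for the following members, as log2 differences of the later minus the earlier time. For 24 h against 6 h these were SEMA3D (0.74), EFNB2 (0.31) and PLXNA4 (-0.80). For 48 h against 24 h they were UNC5C (0.62), EFNB2 (0.52), SEMA3C (0.27), SEMA6D (-0.22), SEMA6C (-0.29), EFNA3 (-0.30), EPHA2 (-0.31), EFNA1 (-0.39), EFNA4 (-0.48) and PLXNA4 (-0.91). For 48 h against 6 h the higher ones were SEMA3D (1.06), EFNB2 (0.82), UNC5C (0.61), SLIT1 (0.48), EPHA8 (0.39), SLIT2 (0.36), SEMA3C (0.33), PLXNA3 (0.27) and SEMA4F (0.19). The lower ones were SEMA6D (-0.17), PLXNA1 (-0.23), SLIT3 (-0.25), EFNA1 (-0.26), EFNA3 (-0.27), UNC5B (-0.27), PLXNA2 (-0.41), EFNA4 (-0.67) and PLXNA4 (-1.70).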

How the results depend on the processing

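Counts of all called genes, 5770 to 8981 for the contrasts with untreated, stayed within 1.5 times of the reported ones under every alternative. With the dimmer 50% of genes left out, which removes members by construction, 11 members were higher and 10 lower at 6 h, 11 higher and 10 lower at 24 h, and 9 higher at 48 h, and 5 were higher at 48 h against 6 h. Cyclic loess gave 11 higher at 6 h; the cause was not tested. Under it 46.2% of all calls were higher at 6 h, against 68.7% as deposited, with member splits given beside the counts above. For 24 h against 6 h, testing every probe set by itself gave 663 genes with a call and 3 members lower, and averaged probe sets 1 member higher. With every probe set by itself, a gene counted when any of its probe sets passed. For 48 h against 24 h, 8 members were higher with every probe set by itself, counted in that way. The mean of probe sets gave 5 higher and the 8-array fits 5, and the cause was not tested. With the mean of probe sets, ROBO4 turned lower (-0.17 at 6 h, -0.23 at 24 h, -0.16 at 48 h), as did SEMA3F at 6 h (-0.16) and 48 h (-0.13). The mean took in dim ROBO4 probe sets at -0.59 to -0.28 and a second tested SEMA3F probe set at -0.54 to -0.41. Why the probe sets of a gene differ was not tested.

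Leaving out each array in turn gave 163 to 378 calls for 24 h against 6 h, with 1 to 4 members higher and 1 lower, and 3 to 5 members higher and 6 to 12 lower for 48 h against 24 h. At 48 h against 6 h it gave 9 to 12 higher and 6 to 12 lower. At 6 h it gave 15 to 18 members higher and 16 to 17 lower, at 24 h 16 to 22 and 17 to 19, and at 48 h 15 to 19 and 18 to 19. No setting in which the member was tested ended 27 of 34 calls at 6 h, 32 of 37 at 24 h and 31 of 35 at 48 h. Members among the dimmer 50% were not tested under that filter, however. Some members were also too dim to be tested with probe sets averaged, so not every call met every setting.

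Replicate numbers are shared between groups in the titles. Deviations of same-numbered arrays correlated at -0.152 to 0.181, and those of differently numbered arrays at -0.285 to 0.262. Of 16 arrays, 5 correlated best with their own number. Pairing by number was thus not apparent, but such weak correlations cannot exclude it, and the labels do not say what a number shares. With the replicate block, 2 member calls of the 6 contrasts were lost (PLXNB3 and UNC5B at 6 h, adjusted p = 0.0612 and 0.0657) and 3 gained.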
